A study of Homo sapiens with 12 samples.

Results

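The genes that make, store, take up and break down serotonin were followed here, and all 9 were found by symbol among the 54261 genes of the deposited expression table. They are the tryptophan hydroxylases TPH1 and TPH2, the decarboxylase DDC, the cofactor enzyme GCH1, the vesicular transporters SLC18A1 and SLC18A2, the uptake transporter SLC6A4 and the monoamine oxidases MAOA and MAOB. They were measured in BON-1, an established human pancreatic neuroendocrine tumour line that is described as releasing serotonin. The groups are BON-1 alone and BON-1 cells from co-culture with CAFs at 10:2, 10:4 and 10:6, the parts of BON-1 to CAFs, with 3 libraries each and 12 in all. CAFs is the usual short form for cancer-associated fibroblasts, and no group had an agent other than these cells. The co-culture cells were recovered by flow cytometry and polyadenylated RNA was sequenced. Whether BON-1 alone went through the sorter, the purity of the sort, the source of the CAFs and the time in co-culture are not stated in the labels.

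Serotonin is made from tryptophan in 2 steps. A tryptophan hydroxylase adds a hydroxyl group, with tetrahydrobiopterin as its cofactor, and aromatic amino acid decarboxylase removes the carboxyl group. The amine is then packed into secretory granules by a vesicular monoamine transporter, and serotonin that has been released can be taken up again by the plasma membrane transporter. Monoamine oxidase breaks it down, and aldehyde dehydrogenases complete the path to 5-hydroxyindoleacetic acid, the urinary marker of serotonin-producing neuroendocrine tumours.

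Values are FPKM, reads scaled by gene length and by the library's reads, so levels can be compared between genes. The whole reads behind the values were recovered, and library totals ran from 11703624 to 21882537 reads. A gene was tested where it reached 1 FPKM in at least 3 libraries, which held for 13312 genes. Tests used limma on log2(FPKM + 1), so changes are differences of means on that scale and understate those of low genes. A gene was called where the Benjamini-Hochberg adjusted p was under 0.05. The labels do not say that the 3 libraries of a group came from separate cultures, so p-values measure the spread between libraries, which may be technical. In bulk RNA, fewer cells that express a gene and less RNA per cell cannot be told apart.

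DDC, GCH1, SLC18A1 and MAOA passed the filter, in all 12 libraries each, while TPH1, TPH2, SLC18A2, SLC6A4 and MAOB reached 1 FPKM in none. Against BON-1 alone, MAOA and GCH1 rose at all 3 ratios. DDC fell at 10:4 and 10:6, and SLC18A1 was not called at any ratio. The called genes were 2 at 10:2, 3 at 10:4 and 3 at 10:6, out of 4 tested. Among all tested genes 27.4% were called at 10:2, 45.4% at 10:4 and 48% at 10:6, so the counts of serotonin genes are read against backgrounds of that size. Once trends with gene length and GC content were removed, the rise of MAOA was still called. That of GCH1 was not, with a log2 change at 10:6 of 0.054 against 0.36 before. The fall of DDC was not called either, though its size at 10:6 was close, at -0.14 against -0.15 before (adjusted p 0.0552 in limma).

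Among the 19301 protein-coding genes of the table, ordered by mean FPKM in BON-1 alone, DDC stood at rank 2039. MAOA and GCH1 followed at the close ranks 5964 and 5988, and SLC18A1 at rank 8121. SLC18A2 stood at rank 11459, MAOB at 12388, TPH2 at 13040, TPH1 at 14295 and SLC6A4 at 15929. The mean level of MAOA in BON-1 alone was 7.41 ± 0.369 FPKM and that of GCH1 7.33 ± 0.352 FPKM (SD, n = 3 each), so these 2 did not differ beyond their spread.

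**Figure D1:**
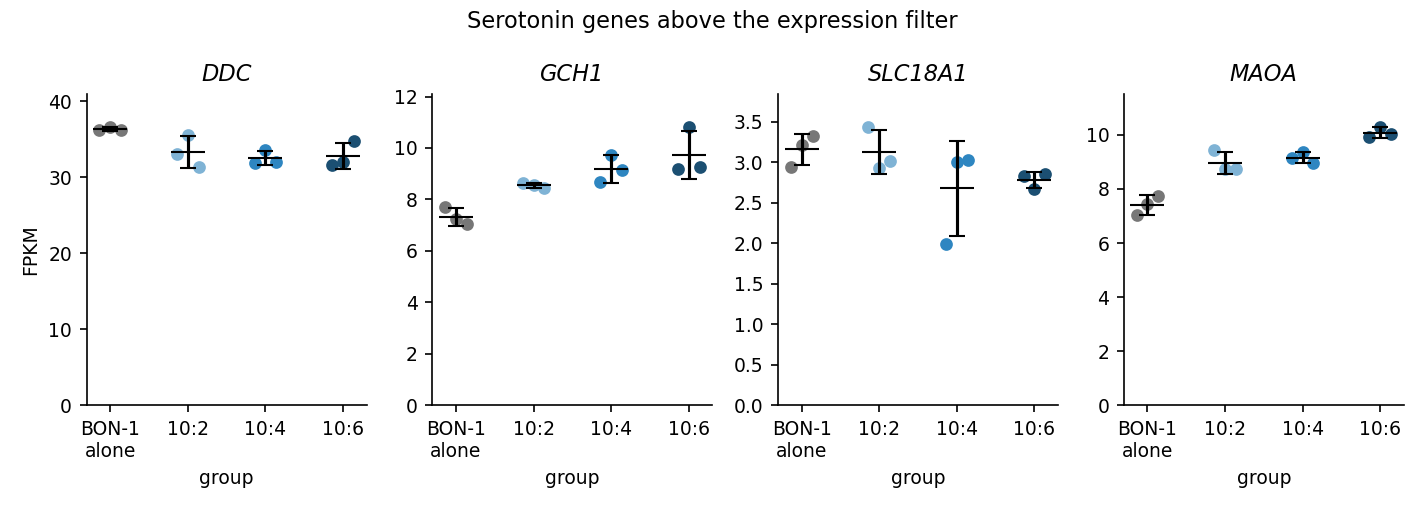
Level in FPKM (vertical axes, each from 0) of the 4 serotonin genes above the expression filter, in BON-1 alone and in co-culture at 10:2, 10:4 and 10:6. Each point is 1 library, and the bars show the mean and SD of 3 libraries. MAOA and GCH1 lie above their BON-1 alone values in all 9 co-culture libraries, DDC lies below, and SLC18A1 overlaps BON-1 alone at 10:2 and 10:4 but not at 10:6.

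TPH1 (gene ID 7166, chromosome 11, 18017555 to 18046269, GRCh38.p14) encodes the hydroxylase of enterochromaffin cells, the first and rate-limiting step. Its reads in the 3 libraries were 0, 1 and 2 in BON-1 alone, 0, 2 and 2 at 10:2, 2, 2 and 6 at 10:4 and 1, 1 and 0 at 10:6. That is 19 reads in 12 libraries, with reads in 9 of them. The group with the most reads was 10:4, where replicate 3 alone gave 6 of 10. Its pooled level at 10:4 was 0.138 FPKM, with an exact Poisson 95% interval of 0.0661 to 0.253. In BON-1 alone it was 0.0321 FPKM, with an interval of 0.00661 to 0.0937, so the intervals overlap. Intervals and floors from reads cover counting error only. Tested without the filter, TPH1 at 10:4 against BON-1 alone had an adjusted p of 0.171 in limma, and of 0.137 in limma-voom on the recovered reads. The length behind the deposited values was 1815 bases, against 5626 bases of summed exons in GENCODE 29, and reads on exons outside the counted part are not in these values.

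TPH2 (gene ID 121278, chromosome 12), the hydroxylase of serotonergic neurons, gave more reads than TPH1 but stayed low. Its counts were 9, 13 and 3 in BON-1 alone, 13, 8 and 4 at 10:2, 10, 14 and 2 at 10:4 and 8, 8 and 16 at 10:6, which is 108 reads in all. Single libraries ran from 0.0493 FPKM, in 10:4 replicate 3, to 0.368 FPKM, in 10:6 replicate 3. All 4 groups overlap. Its adjusted p in limma without the filter was 0.588 at 10:6 against BON-1 alone.

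SLC6A4 (gene ID 6532, chromosome 17), the plasma membrane serotonin transporter, was the lowest of the 9 with 4 reads in 12 libraries. Its reads were 1, 0 and 0 in BON-1 alone and 1, 2 and 0 at 10:6, and none was found at 10:2 or 10:4. With 0 reads in 3 pooled libraries, a floor of 3 reads allows up to 0.0118 FPKM at 10:2 and 0.0114 FPKM at 10:4. MAOB (gene ID 4129, chromosome X), the second monoamine oxidase, gave 128 reads. They numbered 16, 20 and 5 in BON-1 alone, 4, 14 and 7 at 10:2, 7, 14 and 7 at 10:4 and 15, 12 and 7 at 10:6. The groups overlap.

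SLC18A2 (gene ID 6571, chromosome 10) encodes VMAT2, the vesicular transporter of monoaminergic neurons and enteroendocrine cells. It was the gene nearest to the filter from below. Its levels were 0.509, 0.578 and 0.600 FPKM in BON-1 alone, 0.927, 0.439 and 0.762 FPKM at 10:2, 0.872, 0.861 and 0.706 FPKM at 10:4 and 0.497, 0.775 and 0.751 FPKM at 10:6. Every 10:4 library lay above every BON-1 alone library, while 10:2 and 10:6 each held a library below the lowest value of BON-1 alone. The share of all genes that separate so at 10:4 was not counted, and 45.4% of tested genes were called there. The pooled level was 0.814 FPKM at 10:4, with an interval of 0.678 to 0.969, and 0.561 FPKM in BON-1 alone, with an interval of 0.462 to 0.675. In limma without the filter its adjusted p was 0.265 at 10:4, and in limma-voom on the reads 0.166. Across all 3 co-culture ratios and both of these fits, none of the 5 low genes was called. A p that misses the threshold does not show that levels did not differ.

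**Figure D2:**
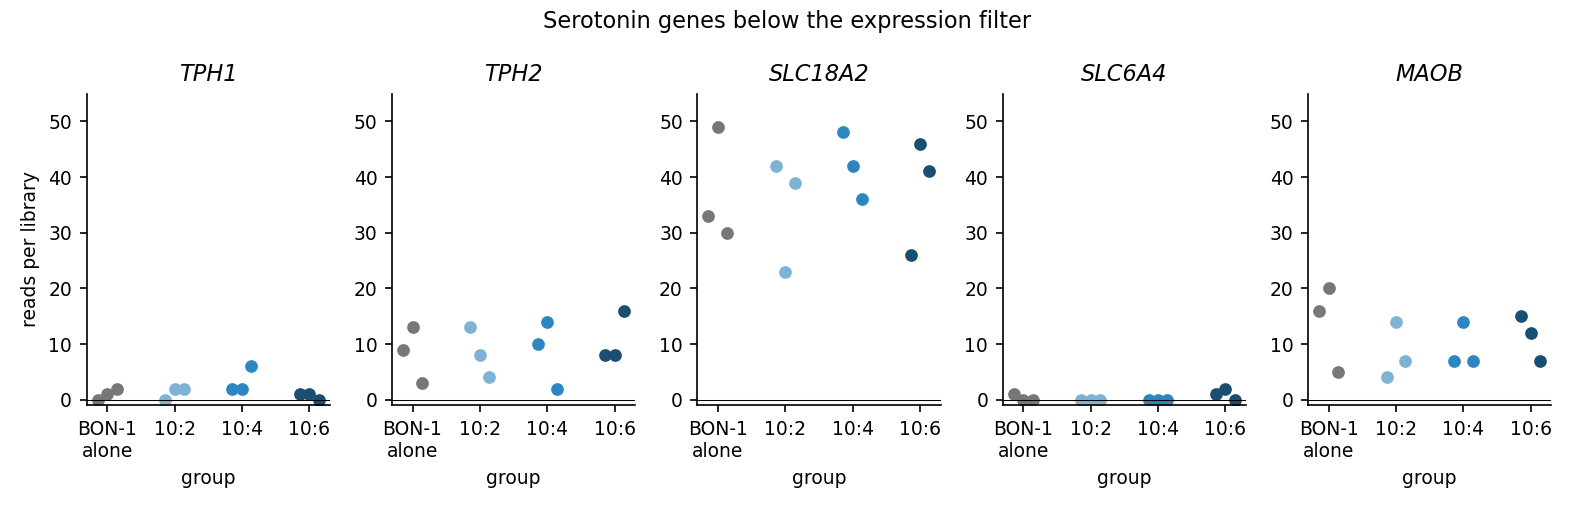
Recovered reads per library (vertical axis, same scale in every panel) for the 5 serotonin genes below the expression filter, by group. Each point is 1 library, and SLC18A2 lies between 23 and 49 reads while TPH1 does not pass 6 and SLC6A4 does not pass 2.

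GCH1 (gene ID 2643, chromosome 14, 54842017 to 54902826) encodes GTP cyclohydrolase, the first enzyme of tetrahydrobiopterin synthesis. Its levels were 7.72, 7.25 and 7.03 FPKM in BON-1 alone, 8.63, 8.57 and 8.43 FPKM at 10:2, 8.66, 9.74 and 9.13 FPKM at 10:4 and 9.17, 10.8 and 9.24 FPKM at 10:6. All 9 co-culture values lie above all 3 of BON-1 alone. The group means were 8.54 ± 0.103 FPKM at 10:2, 9.18 ± 0.544 at 10:4 and 9.74 ± 0.931 at 10:6, against 7.33 ± 0.352 in BON-1 alone (SD, n = 3 each). By limma GCH1 rose by 0.20 on the log2 scale at 10:2 (SE 0.0634, adjusted p 0.0389), by 0.29 at 10:4 (adjusted p 0.00327) and by 0.36 at 10:6 (adjusted p 0.000658). At 10:2 the adjusted p was 0.101 and 0.123 when replicate 2 or 3 of BON-1 alone was left out, and 0.0943, 0.0769 and 0.0774 when replicate 1, 2 or 3 of 10:2 was left out, so that each of these fits lost the call. It was also lost with no filter (0.0876) and under quantile normalization (0.154).

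Changes across all tested genes went with base composition. Over 12388 tested genes the change against BON-1 alone correlated with GC content at a Spearman rho of -0.677 at 10:2, -0.716 at 10:4 and -0.720 at 10:6. This is a description across genes, which share their libraries and are not replicates. GC content is 43.2% in GCH1, below the median of 49.7% for those genes, and 48.0% in MAOA, 49.9% in DDC and 50.1% in SLC18A1. With the length and GC trends removed, the change of GCH1 was -0.0089 at 10:2 (adjusted p 0.949), 0.0050 at 10:4 (adjusted p 0.965) and 0.054 at 10:6 (adjusted p 0.524) in limma, and the 95% interval at 10:6 was -0.0693 to 0.178. What set the GC trend was not tested. Of all 12388 genes, 751 were called higher and 694 lower at 10:2 with the trends removed. At 10:4 these counts were 1321 and 1549, and at 10:6 they were 1431 and 1734.

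**Figure D3:**
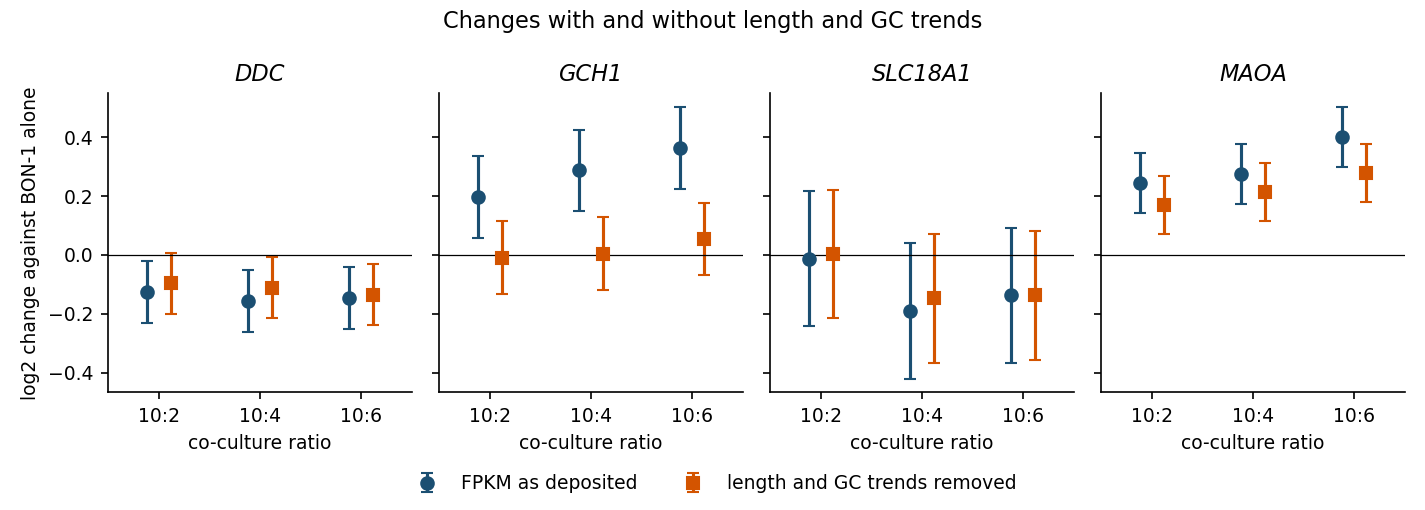
Log2 change against BON-1 alone (vertical axis) of the 4 tested serotonin genes at each co-culture ratio, from FPKM as deposited (circles) and after trends with gene length and GC content were removed (squares). Bars are 95% intervals from limma, and with the trends removed the GCH1 intervals cross 0 at all 3 ratios while those of MAOA lie above 0.

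The other 7 genes of tetrahydrobiopterin synthesis and recycling were all tested, and none was called higher than in BON-1 alone at any ratio. Called lower were 2 at 10:2, 2 at 10:4 and 3 at 10:6, beside 7.46%, 18.1% and 18.3% of all tested genes. SPR, sepiapterin reductase, catalyses the last step of synthesis and fell at 10:6 to 69.4 ± 3.71 FPKM, against 86.7 ± 2.03 FPKM in BON-1 alone (log2 change -0.32, adjusted p 5.56e-05). QDPR, which regenerates the cofactor, fell to 23.2 ± 1.29 FPKM at 10:6, against 28.0 ± 1.21 FPKM in BON-1 alone (log2 change -0.26, adjusted p 0.000444). PCBD1, a dehydratase of the same cycle, fell at 10:6 by 0.16 on the log2 scale (adjusted p 0.00495). GCHFR, the feedback regulator that binds GTP cyclohydrolase, had 81.1 ± 1.63 FPKM at 10:6 and 86.3 ± 3.96 FPKM in BON-1 alone and was not called (adjusted p 0.148). With the trends removed 4 of the 7 were called lower at 10:6, 1 at 10:4 and 0 at 10:2. Of all 12388 genes tested so, 1734 were lower at 10:6, 1549 at 10:4 and 694 at 10:2. Among the 4 were SPR and QDPR (adjusted p 0.00305 and 0.0143) and not PCBD1 (0.540), which was then called higher at 10:4 (0.11, adjusted p 0.0178).

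DDC (gene ID 1644, chromosome 7, 50458442 to 50565405) encodes aromatic amino acid decarboxylase, which forms serotonin and also dopamine. It was by far the highest of the 9. Its levels were 36.2, 36.6 and 36.2 FPKM in BON-1 alone, 33.0, 35.5 and 31.4 FPKM at 10:2, 31.9, 33.7 and 32.0 FPKM at 10:4 and 31.6, 32.0 and 34.8 FPKM at 10:6. All 9 co-culture values lie below all 3 of BON-1 alone. The 3 ratios overlap with each other.

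The fall of DDC was small. Means were 33.3 ± 2.10 FPKM at 10:2, 32.5 ± 0.959 at 10:4 and 32.8 ± 1.75 at 10:6, against 36.4 ± 0.225 in BON-1 alone (SD, n = 3 each). In limma the change was -0.13 at 10:2 (adjusted p 0.0758, not called), -0.16 at 10:4 (SE 0.0485, adjusted p 0.0209) and -0.15 at 10:6 (adjusted p 0.0272). The BON-1 alone values stood closer together than reads are counted, with a coefficient of variation of 0.618% against 2.83% from counting alone. Pooled over the group, the exact Poisson 95% interval was 31.3 to 33.8 FPKM at 10:4 and 31.6 to 34.0 at 10:6, against 35.3 to 37.6 FPKM in BON-1 alone.

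The DDC calls were near the threshold. At 10:6 the call was lost without BON-1 alone replicate 1, 2 or 3 (adjusted p 0.0597, 0.0718 and 0.0588) and without 10:6 replicate 1 or 2 (0.0916 and 0.0879), and also with no filter (0.0592) or quantile normalization (0.0595). At 10:4 it was lost without BON-1 alone replicate 2 (0.0583) and without 10:4 replicate 1 or 3 (0.0580 and 0.0585). At 10:2 it was gained without 10:2 replicate 2 (0.0220) and under median-of-ratios rescaling (0.0496). After removal of the length and GC trends the change was -0.11 at 10:4 (adjusted p 0.115) and -0.14 at 10:6 (adjusted p 0.0552). DDC overlaps the antisense gene DDC-AS1, which was listed at 0 to 0.128 FPKM. No source names a strand setting for the counting, so reads of the pair cannot be told apart.

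Both steps of synthesis also need supply from outside the enzymes. Of 6 genes for amino acid entry and for the cofactor pyridoxal phosphate, 5 were tested, and none was called higher at any ratio. Called lower were 4 at 10:2, 4 at 10:4 and 3 at 10:6, where all tested genes gave 7.46%, 18.1% and 18.3%. SLC7A5, the light chain of the large neutral amino acid transporter that carries tryptophan, fell at 10:6 to 395.4 ± 5.30 FPKM, against 451.8 ± 2.35 FPKM in BON-1 alone (adjusted p 0.000314). Its heavy chain SLC3A2 fell to 298.4 ± 10.9 FPKM, against 331.9 ± 5.79 FPKM (adjusted p 0.00498). PDXK, pyridoxal kinase, fell at 10:6 by 0.13 on the log2 scale (adjusted p 0.0183). With the trends removed, 1 of the 5 was called at 10:6, SLC7A5 (adjusted p 0.00402).

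SLC18A1 (gene ID 6570, chromosome 8) encodes VMAT1, the vesicular transporter of neuroendocrine cells. Its levels were 2.95, 3.21 and 3.32 FPKM in BON-1 alone, 3.44, 2.93 and 3.02 FPKM at 10:2, 2.00, 3.01 and 3.03 FPKM at 10:4 and 2.83, 2.67 and 2.86 FPKM at 10:6. The lowest value, in 10:4 replicate 1, stands apart from its group, and the 3 libraries at 10:6 lie below all 3 of BON-1 alone. The share of all genes that separate so at 10:6 was not counted, and 48% of tested genes were called there. Its change was -0.013 at 10:2 (95% interval -0.242 to 0.217, adjusted p 0.942), -0.19 at 10:4 (interval -0.420 to 0.0393, adjusted p 0.160) and -0.14 at 10:6 (interval -0.366 to 0.0931, adjusted p 0.311) in limma. Under quantile normalization it was called lower at 10:4 (log2 change -0.38, adjusted p 0.00832) and at 10:6 (-0.31, adjusted p 0.0190). In every library SLC18A1 exceeded SLC18A2. Their ratio averaged 4.78 ± 1.64 at 10:2, 3.36 ± 1.01 at 10:4 and 4.31 ± 1.21 at 10:6, against 5.63 ± 0.140 in BON-1 alone (SD, n = 3 each).

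Granule proteins and the proton pump that powers vesicular loading moved in both directions. Of 17 such genes 16 were tested, and at 10:6 against BON-1 alone 6 were higher and 7 lower, beside 29.7% and 18.3% of all tested genes. With the trends removed 4 were higher and 4 lower, beside 1431 higher and 1734 lower of 12388 genes. SCG2, a granin, rose to 1401 ± 7.84 FPKM at 10:6, against 746.7 ± 5.35 FPKM in BON-1 alone (log2 change 0.91, adjusted p 4.16e-09). CHGA, chromogranin A, fell to 975.1 ± 39.2 FPKM, against 1347 ± 25.9 FPKM (log2 change -0.47, adjusted p 6.65e-07), and CHGB rose by 0.32 (adjusted p 3.60e-06). ATP6V1A, the catalytic subunit of the vacuolar proton pump, rose to 18.8 ± 1.31 FPKM at 10:6, against 9.99 ± 0.433 FPKM in BON-1 alone (adjusted p 1.61e-06). The direction of the pump's members was not shared, as ATP6V0D1 had 87.1 ± 0.443 FPKM at 10:6 and 110.3 ± 1.72 FPKM in BON-1 alone and fell (adjusted p 2.08e-05, named after its values were seen). All 5 kept their direction and stayed called with the trends removed.

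MAOA (gene ID 4128, chromosome X, 43655006 to 43746817) encodes monoamine oxidase A, the form that prefers serotonin. It rose at every ratio. Its levels were 7.02, 7.45 and 7.76 FPKM in BON-1 alone, 9.43, 8.75 and 8.72 FPKM at 10:2, 9.13, 9.38 and 8.97 FPKM at 10:4 and 9.93, 10.3 and 10.0 FPKM at 10:6. The highest BON-1 alone library lies below the lowest co-culture library, and the 3 libraries at 10:6 lie above all others. How many genes share the latter pattern was not counted. Means were 8.97 ± 0.401 FPKM at 10:2, 9.16 ± 0.207 at 10:4 and 10.1 ± 0.187 at 10:6, against 7.41 ± 0.369 in BON-1 alone (SD, n = 3 each).

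By limma MAOA rose by 0.25 on the log2 scale at 10:2 (SE 0.0465, adjusted p 0.00246), by 0.27 at 10:4 (adjusted p 0.000597) and by 0.40 at 10:6 (95% interval 0.298 to 0.501, adjusted p 3.71e-05). The call held at all 3 ratios without the length and GC trends, at 0.17 (adjusted p 0.0324), 0.21 (0.00556) and 0.28 (0.000998). Called higher against BON-1 alone were 19.9% of all tested genes at 10:2, 27.3% at 10:4 and 29.7% at 10:6. Called lower were 7.46% at 10:2, 18.1% at 10:4 and 18.3% at 10:6. Co-culture libraries all lay above BON-1 alone in 23.5% of tested genes, as in MAOA and GCH1, and all below in 11.8%, as in DDC. MAOA exceeded MAOB in every library, and their ratio ran from 20.2 to 75.7 over the 12 libraries. MAOB rests on at most 20 reads in each of them.

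The promoter sequences of 7 of the 9 genes were matched in RefSeq, on GRCh38.p14. Shown are the 120 bases before the start site of TPH1, the hydroxylase that was close to 0, of both DDC starts in the table, and of MAOA, whose rise held with the trends removed. Capitals mark matches on either strand to a CCAAT box, spelled by its name, and to the core of a GC box, CCGCCC. The simple form of a TATA box that was searched is TATAAA. The cAMP response element was searched as TGACGTCA. No matches overlap in the stretches shown.
TPH1, chr11:18046270-18046389, minus strand: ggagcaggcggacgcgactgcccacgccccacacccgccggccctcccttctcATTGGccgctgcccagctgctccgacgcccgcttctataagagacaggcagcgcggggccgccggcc
DDC start 1, chr7:50565406-50565525, minus strand: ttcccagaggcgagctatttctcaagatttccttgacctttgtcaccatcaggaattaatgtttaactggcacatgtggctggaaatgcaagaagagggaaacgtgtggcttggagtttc
DDC start 2, chr7:50561072-50561191, minus strand: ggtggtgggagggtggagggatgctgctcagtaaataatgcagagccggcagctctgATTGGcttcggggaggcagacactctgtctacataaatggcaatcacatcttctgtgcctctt
MAOA, chrX:43656179-43656298, plus strand: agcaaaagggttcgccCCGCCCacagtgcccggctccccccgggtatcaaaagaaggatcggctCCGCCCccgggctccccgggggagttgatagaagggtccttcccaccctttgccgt

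The start used for MAOA and the second of DDC lie inside the gene spans given above. TPH1 and the second DDC start each hold 1 CCAAT box in reverse, and 32.0% of all 35116 RefSeq windows of 250 bases before a start hold at least 1. MAOA holds 4 GC-box cores in its 250 bases, of which 2 are in the stretch shown, and 42.6% of windows hold at least 1. Among the matched genes not shown, MAOB holds 7, SLC18A2 holds 3, and TPH2 and SLC6A4 hold 1 each. No motif was matched at the first DDC start. A TATAAA match is in 10.7% of windows and in none of the 4 shown, and TGACGTCA in 1.65% and none. Of the genes not shown, TPH2 holds a TATAAA match and SLC18A2 a TGACGTCA match. GC content over 250 bases was 58.8% for TPH1, 42.4% and 58.0% for the DDC starts and 63.2% for MAOA. A match is a description of letters and not of a bound site.

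After monoamine oxidase, aldehydes are oxidised or reduced. Of 14 genes for these steps and for other routes of serotonin breakdown, 9 were tested, and at 10:6 against BON-1 alone 2 were higher and 2 lower, shares near the 29.7% and 18.3% of all tested genes. ALDH1A1, an aldehyde dehydrogenase, rose to 64.8 ± 1.56 FPKM at 10:6, against 41.4 ± 1.76 FPKM in BON-1 alone (log2 change 0.63, adjusted p 1.74e-06). ALDH7A1 rose by 0.14 (adjusted p 0.00932), a direction that turned with the trends removed (-0.065, adjusted p 0.316). AKR1B1, an aldose reductase, fell to 91.9 ± 3.19 FPKM, against 106.5 ± 1.81 FPKM (adjusted p 0.000430), and AKR1A1 fell by 0.15 (adjusted p 0.0337). ALDH1A1 and AKR1B1 stayed called with the trends removed (adjusted p 0.000258 and 0.00862), and AKR1A1 did not (0.830).

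Because DDC and MAOA act at opposite ends of the path, their levels were set side by side within each library. The ratio of DDC to MAOA was 5.16, 4.92 and 4.67 in BON-1 alone, 3.50, 4.06 and 3.59 at 10:2, 3.50, 3.59 and 3.57 at 10:4 and 3.18, 3.11 and 3.47 at 10:6. Every co-culture library lies below every BON-1 alone library. This follows from the levels above, as DDC was lower and MAOA higher in every co-culture library, and is no separate result. The mean was 3.25 ± 0.191 at 10:6, against 4.92 ± 0.244 in BON-1 alone (SD, n = 3 each), a ratio of transcript levels and not of enzyme activities. DDC to GCH1 averaged 3.39 ± 0.407 at 10:6, against 4.97 ± 0.242 in BON-1 alone, which follows from the levels above in the same way. With the length and GC trends removed neither DDC nor GCH1 was called against BON-1 alone.

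Between the co-culture ratios no serotonin gene was called. Among all tested genes 2.88% were called at 10:4 against 10:2, 0.331% at 10:6 against 10:4 and 6.97% at 10:6 against 10:2. MAOA had the smallest adjusted p of the 4 in the last of these, 0.15 higher at 10:6 than at 10:2 (95% interval 0.0526 to 0.256, adjusted p 0.0675 in limma). It was called there by limma-voom on the recovered reads (log2 change 0.17, adjusted p 0.0488). GCH1 was 0.17 higher at 10:6 than at 10:2 (interval 0.0286 to 0.306, adjusted p 0.130). DDC differed by -0.020 between the same groups (interval -0.126 to 0.0860, adjusted p 0.839). In the test of any difference among the 4 groups, 2 serotonin genes were called, MAOA (adjusted p 0.000226) and GCH1 (0.00316), against 44.4% of all tested genes. DDC had an adjusted p of 0.0577 and SLC18A1 of 0.334.

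Some genes followed the serotonin genes closely over the 12 libraries. They were taken from protein-coding genes of at least 5 FPKM on average, as the 3 with the highest Pearson r for each serotonin gene. Candidates numbered 7212, or 7213 for SLC18A1, and the libraries share their groups. High r values can therefore come from the choice alone and are no separate result. For MAOA they were GTF2H3 (r = 0.977), DTL (0.975) and TPM1 (0.975). TPM1, a tropomyosin, averaged 84.6 FPKM at 10:6 and 66.9 FPKM in BON-1 alone. For GCH1 they were CDC42EP3 (0.964), AGFG1 (0.959) and ABHD3 (0.959). For DDC they were MZT2B (0.918), TEX261 (0.912) and CASKIN2 (0.903), and for SLC18A1 GABBR2 (0.894), CEP250 (0.876) and KDM2A (0.867).

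Tryptophan hydroxylase is regulated by phosphorylation and by 14-3-3 proteins. Of 15 genes for these regulators and for serotonin release, 11 were tested, and at 10:6 against BON-1 alone 6 were higher and 1 lower, where all tested genes gave 29.7% and 18.3%. YWHAZ, a 14-3-3 protein, rose to 197.5 ± 13.8 FPKM at 10:6, against 130.0 ± 2.16 FPKM in BON-1 alone (log2 change 0.60, adjusted p 5.27e-06). YWHAQ rose by 0.32 (adjusted p 7.40e-06) and PRKAR1A, a regulatory subunit of protein kinase A, by 0.46 (adjusted p 6.14e-06). YWHAB rose by 0.28 (adjusted p 1.67e-05), a sign that turned with the trends removed (-0.021). The signs of PRKACB and CREB1, which were also called higher, turned there too (named after their values were seen). With the trends removed, 1431 of 12388 genes were higher and 1734 lower. Of the 11, 1 was then higher, YWHAZ (0.21, adjusted p 0.00108), and 1 lower, YWHAE (-0.19, adjusted p 0.000194). The gene called lower before was another, YWHAH (-0.10, adjusted p 0.0395), and both were named after their values were seen.

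Of 13 transcription factors of serotonergic and enterochromaffin cells 8 were tested, and at 10:6 against BON-1 alone 2 were higher and 3 lower, beside 29.7% and 18.3% of all tested genes. NEUROD1 rose to 41.2 ± 0.917 FPKM, against 31.8 ± 1.87 FPKM in BON-1 alone (adjusted p 5.26e-05), and RFX6 to 2.83 ± 0.339 FPKM, against 2.05 ± 0.322 FPKM (adjusted p 0.0123). NKX2-2 fell to 15.1 ± 0.468 FPKM, against 20.4 ± 0.416 FPKM in BON-1 alone (adjusted p 0.000173), and INSM1 to 170.5 ± 8.68 FPKM, against 195.2 ± 2.48 FPKM (adjusted p 0.0145). FEV, the serotonergic factor also called PET1, fell to 14.8 ± 2.12 FPKM, against 17.9 ± 1.91 FPKM (adjusted p 0.0390, named after its values were seen). NEUROD1 and NKX2-2 alone stayed called with the trends removed (adjusted p 0.0115 and 0.00678).

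The branches that compete for tryptophan or for the same amines had most of their genes below the filter. IDO1 and IDO2, which open the kynurenine path, were listed at 0 in all libraries, and TDO2 averaged 0.0950 FPKM at 10:6 and 0.0268 FPKM in BON-1 alone. TH, which makes the dopamine precursor that DDC also uses, averaged 0.110 FPKM at 10:6 and 0.108 FPKM in BON-1 alone. Of 10 kynurenine genes 4 were tested and 2 called lower at 10:6, beside 18.3% of all tested genes. These were AFMID (adjusted p 0.0443) and QPRT (adjusted p 0.0246), with none called and QPRT of the other sign (0.018) once the trends were removed. Of 17 serotonin receptors 2 were tested, HTR1D and HTR2A, and neither was called at any ratio, while 1 was called lower at 10:6 under quantile normalization. HTR1D averaged 1.42 ± 0.206 FPKM at 10:6 and 1.76 ± 0.242 FPKM in BON-1 alone, and HTR2A 1.09 ± 0.138 FPKM at 10:6 and 0.953 ± 0.110 FPKM in BON-1 alone. With the trends removed HTR2A was called lower at 10:4 (-0.37, adjusted p 0.0297) and 10:6 (-0.34, adjusted p 0.0400).

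**Figure D4:**
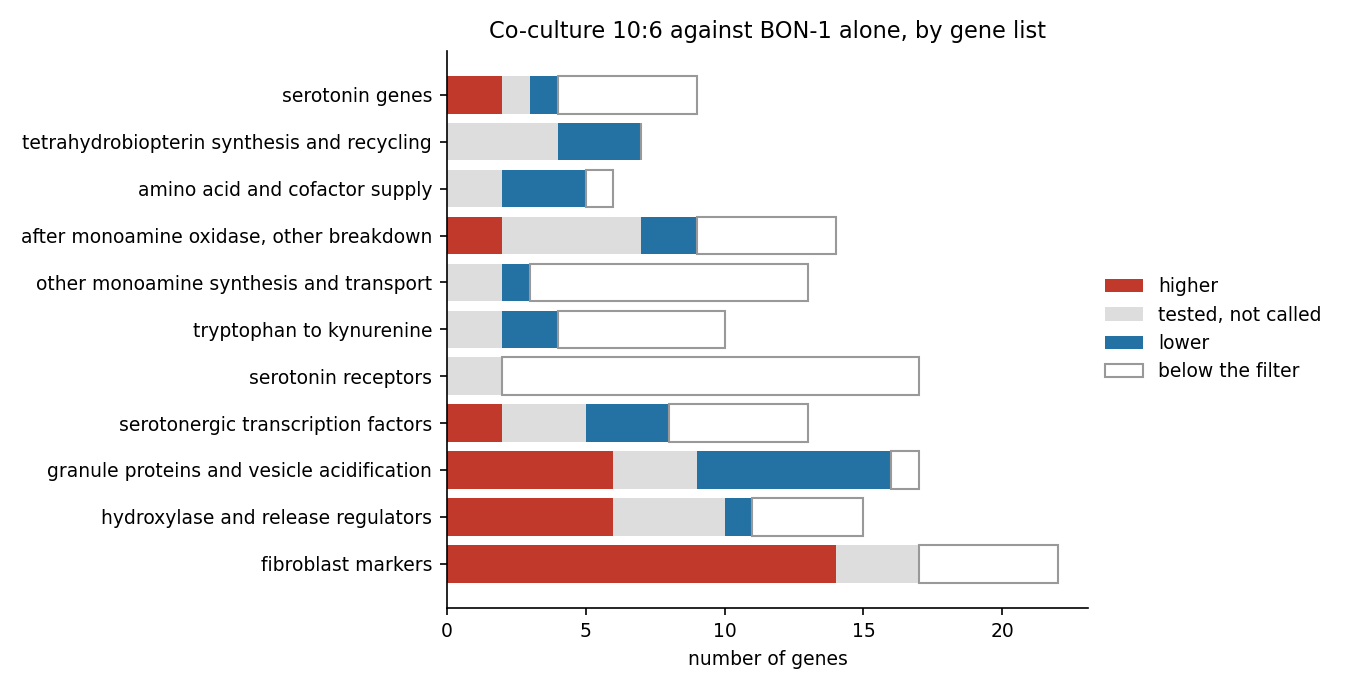
Number of genes (horizontal axis) in the serotonin genes and each related list that were called higher, tested and not called, called lower, or below the expression filter, in co-culture at 10:6 against BON-1 alone. Of the 9 serotonin genes 2 were higher, 1 was lower and 5 were below the filter, and of 22 fibroblast markers 14 were higher. Among all tested genes 29.7% were higher and 18.3% lower.

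The identity of the cells was checked with marker genes. CHGA, CHGB, SYP and INSM1 were expressed in all groups, and 13 of 15 neuroendocrine markers were tested, of which 7 were higher and 4 lower at 10:6 against BON-1 alone, beside 29.7% higher and 18.3% lower of all tested genes. With the trends removed 4 were higher and 2 lower, with SYP of the other sign, beside 1431 higher and 1734 lower of 12388 genes. Under quantile normalization 7 were higher and 2 lower, beside 2915 higher and 3580 lower of 13312 genes. NCAM1 and PCSK2 were at or close to 0. Fibroblast markers moved with the CAF ratio. Of 22, 17 were tested, and 9 were called higher at 10:2, 14 at 10:4 and 14 at 10:6. Of all tested genes 19.9%, 27.3% and 29.7% were higher at these ratios. None of the markers was lower except 1 at 10:4 and 1 at 10:6 under quantile normalization and 1 at 10:6 under median-of-ratios rescaling. COL1A1, a collagen chain, averaged 9.22 FPKM in BON-1 alone, 18.0 at 10:2, 37.4 at 10:4 and 54.4 at 10:6. Without S100A4, which was the most abundant of the list in BON-1 alone and was set aside after its values were seen, the summed level was 170.6 to 174.8 FPKM in BON-1 alone, 206.6 to 211.0 at 10:2, 293.6 to 302.4 at 10:4 and 379.0 to 383.4 at 10:6. With S100A4 kept, the sum was 2419 to 2501 FPKM in BON-1 alone, 2294 to 2373 at 10:2, 2386 to 2634 at 10:4 and 2572 to 2858 at 10:6. That sum was lower at 10:2 than in BON-1 alone and overlapped BON-1 alone at 10:4. LUM, DCN, POSTN and FAP averaged below 1 FPKM in every group, but each was higher at 10:6 than in BON-1 alone, with 0.832 against 0.0617 FPKM for POSTN, 0.533 against 0.126 for LUM, 0.334 against 0.0293 for DCN and 0.0966 against 0.00936 for FAP (not tested), and PDPN was at 0 in all co-culture libraries.

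Most of the tested fibroblast markers rose against BON-1 alone, as MAOA and GCH1 did. At 10:4 against 10:2, 11 of the 17 tested markers were called higher, beside 2.88% of all tested genes called in either direction. MAOA then changed by 0.029 (adjusted p 0.776 in limma) and GCH1 by 0.091 (adjusted p 0.444). At 10:6 against 10:4, 7 markers were called higher, beside 0.331%. There MAOA changed by 0.13 (adjusted p 0.283) and GCH1 by 0.076 (adjusted p 0.650). At 10:6 against 10:2, 13 markers were called higher, beside 6.97%. MAOA changed by 0.15 (adjusted p 0.0675) and GCH1 by 0.17 (adjusted p 0.130). Neither gene was called by limma in any of these comparisons. The part of the fibroblast markers in the changes of MAOA and GCH1 was not tested. The median log2 change at 10:6 was 1.21 for the 17 fibroblast markers, against 0.019 for all tested genes, and 1.33 with the trends removed. For the 4 serotonin genes, which went both ways, it was 0.11, and -0.041 with the trends removed. Of 14 markers of mast cells, platelets and macrophages, other cells that hold serotonin, 13 were below 1 FPKM in every group and FCER1A and MS4A2 were at 0 in all libraries. The summed level of these markers was 7.71 to 9.22 FPKM at 10:6 and 7.46 to 7.89 FPKM in BON-1 alone. Most of that sum was the macrophage marker CD68, with means of 7.37 FPKM at 10:6 and 6.42 FPKM in BON-1 alone. CD68 was not called at 10:6 (adjusted p 0.169 in limma), but was called higher there with the trends removed (adjusted p 0.0411). Of 8 endothelial markers 4 were tested, with 1 higher and 1 lower at 10:6, beside 29.7% and 18.3% of all tested genes. With the trends removed 1 was higher and 0 lower at 10:6, and under quantile normalization 1 was higher and 2 lower. The summed level of the 8 was 43.0 to 45.3 FPKM at 10:6 and 44.0 to 44.6 FPKM in BON-1 alone.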

How the data were processed

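Polyadenylated RNA of 12 libraries, 3 in each of 4 groups, came as a single deposited table of 54261 genes in FPKM. The submitters' processing notes name HISAT2, featureCounts and hg38, without settings or versions. Each column carries a code that is also in a sample's title. Reads were recovered as FPKM times length times library total, and 99.973817% of 267349 nonzero values came out whole within 1e-05 of a read, with lengths of up to 200000 bases. Depths were 11703624 to 21882537 reads. No 2 libraries of a group were treated as repeats, since their reads differed beyond counting error (chi-square per degree of freedom 1.66 to 4.33 for genes of 100 reads or more in the pair).

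The test was limma 3.58.1 in R 4.3.3 on log2(FPKM + 1), with 1 mean per group over all 12 libraries, a variance trend and Benjamini-Hochberg adjustment over 13312 genes with at least 1 FPKM in at least 3 libraries. Alternatives were a pseudocount of 0.1, no filter, median-of-ratios rescaling, quantile normalization, a fit of the compared groups alone, a replicate block, limma-voom on recovered reads, protein-coding genes alone, each library left out, and trends with length and GC content removed by splines with 5 degrees of freedom each. GC content came from GENCODE 29 and was found for 93.1% of the tested genes. limma-voom with no filter was added after the data were seen. The fits were tested on simulated data. Python 3.11.15 was used for recovery and annotation.

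The members and gene lists were chosen with earlier results of these data known. All 9 serotonin genes are given. Of each other list, up to 4 genes could be named by smallest p in the comparison of 10:6 with BON-1 alone, plus the most abundant gene. Genes named because they were at or near 0 or below the filter, and those marked so, were picked after their values were seen. Values of 2 genes of these lists are not reported here.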

Additional observations from a re-analysis of the deposited data

How the results depend on the processing

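Of the changes of single serotonin genes under alternatives other than limma-voom with no filter, 464 kept direction and side of the threshold, 21 lost the call, 5 gained it and 14 changed sign. With limma-voom and no filter, a setting chosen after seeing the data, 23 kept both and 1 lost the call. Only GCH1 at 10:2 was called and changed sign, to -0.0089 with trends removed. The uncalled sign changes were SLC18A1 at 10:2 against BON-1 alone with trends removed (0.0036) and DDC at 10:6 against 10:4 with median-of-ratios (-0.0066) or trends removed (-0.024). With single libraries left out, SLC18A1 ran from -0.066 to 0.022 at 10:2 against BON-1 alone and from -0.087 to 0.13 at 10:6 against 10:4. DDC then ran from -0.072 to 0.016 at 10:4 against 10:2, from -0.032 to 0.036 at 10:6 against 10:4 and from -0.062 to 0.026 at 10:6 against 10:2. Called serotonin genes at 10:2 fell to 1 with no filter, quantile normalization, trends removed or limma-voom with no filter, and to 1 to 2 with libraries left out. With trends removed 1 was called at 10:4 and 1 at 10:6, and 1 was called at 10:6 against 10:2 by limma-voom on filtered reads. Trends removed also took all called genes from 3648 to 1445 at 10:2, from 6046 to 2870 at 10:4 and from 6394 to 3165 at 10:6. Genes called at 10:4 against 10:2 were 384, and 179 with no filter, 48 in a fit of those groups, 175 with the replicate block, 1045 by limma-voom, 106 with trends removed, 717 over protein-coding genes and 45 to 461 with libraries left out. At 10:6 against 10:4 they were 44, and 16 with no filter, 69 by quantile normalization, 12 in a fit of those groups, 15 with the block, 276 by limma-voom, 98 with trends removed, 109 over protein-coding genes, 151 by limma-voom with no filter and 12 to 42 with libraries left out. At 10:6 against 10:2 they were 928, and 477 with no filter, 263 in a fit of those groups, 542 with the block, 1541 by limma-voom, 447 with trends removed and 229 to 1105 with libraries left out. Of the genes called against BON-1 alone, 72.8% were higher at 10:2, 60.2% at 10:4 and 61.8% at 10:6. These shares were 61.9%, 43.7% and 44.9% under quantile normalization, and 52.0%, 46.0% and 45.2% with trends removed. At 10:4 against 10:2 the share was 85.7%, and 75.7% and 68.9% under these 2 settings, and at 10:6 against 10:2 it was 64.9%, and 48.7% with median-of-ratios, 52.1% and 45.9%. The cause of these shifts was not tested. Replicate numbers did not pair the libraries, as the deviations of same-numbered libraries correlated at -0.0427 to 0.0458 and 1 of 12 libraries correlated best with its own number. The replicate block left 2, 3 and 3 serotonin genes called at 10:2, 10:4 and 10:6. Depth limits TPH1, SLC6A4, TPH2 and MAOB, which had at most 20 reads in any library.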
